A study of Homo sapiens with 2 samples.

Results

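The heat shock proteins and J-domain cochaperones described here were defined by gene symbol, with earlier results of these data known. The rule took the protein-coding genes whose name begins with DNAJ, or with HSPA or HSPB and a digit. HSPD1, HSPE1, HSPH1, HSP90AA1 and HSP90AB1 were added, and HSPA5 was left out. This gave 71 of the 19263 protein-coding genes and 57820 gene identifiers in the table, namely 45 J-domain genes and 26 heat shock protein genes. RNA came from HCT116, a human colorectal carcinoma cell line, with 1 library from cells wild-type for CREB1 and 1 from a CREB1 knockout line. That line is a clone grown from 1 cell after a PX461 plasmid had delivered nickase Cas9 with guides against CREB1, a transcription factor of cAMP response elements. Both cultures were kept in DMEM with fetal bovine serum, and no heat or drug treatment is named for either. With 1 library per genotype there is no spread between replicates and no test. The intervals given with ratios are therefore 95% intervals that cover counting error only. Culture, clone and library preparation cannot be told apart from the genotype. In bulk RNA, fewer cells that express a gene and less RNA per cell cannot be told apart either.

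Heat shock proteins and their J-domain partners are the general folding machines of the cell. HSP70 proteins bind unfolded stretches of other proteins in cycles of ATP hydrolysis. J-domain proteins deliver those clients and start the hydrolysis, and nucleotide exchange factors such as the HSP110 proteins reset the cycle. HSP90 acts later on kinases and steroid receptors, small heat shock proteins hold clients in a soluble state, and HSPD1 with its lid HSPE1 forms the folding chamber of the mitochondrial matrix. Tumour cells usually express many of these genes at a high level without heat stress, and heat shock factor 1 (HSF1) raises them further by binding heat shock elements in their promoters.

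The rounded counts summed to 34511074 for wild-type and 31178309 for knockout cells. CREB1 itself had 614 and 499 counts, a log2 ratio of -0.23 (-0.40 to -0.05). All log2 ratios are knockout over wild-type, taken on CPM, the counts scaled to library size with TMM factors. Scaled by total counts instead, the interval of CREB1 reached 0.02. The labels describe the clone as lacking CREB1, and a gene-level count does not check a small edit. Of 10 colorectal epithelial markers, 6 were expressed (mean CPM of 1 or more), namely KRT8, KRT18, KRT19, EPCAM, CDH1 and CDX2, while CDX1 had no counts and LGALS4, VIL1 and KRT20 were low (at most 39 counts). Of 10 markers of fibroblasts, leukocytes and endothelium, 9 had a matched row, with a summed level of 3.95 CPM (wild-type) and 3.44 CPM (knockout). PTPRC, CD3E, LUM and COL1A2 were at 0 in both, COL1A1 had 83 and 89 counts, and CD68 had 33 and 1.

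Most of the group was close to equal in the 2 libraries. Of the 71 members, 57 were expressed by the same measure, and 43 of these (75.4%) lay within 1.25-fold, against 68.9% of the 12886 expressed genes. At 2-fold, with an interval that excludes no difference, 1 member was called (HSPB8, lower), where 2.92% of expressed genes were called, 1.28% higher and 1.64% lower. At 1.5-fold the members called were HSPB8 and HSPA12A, both lower, where 10.8% of expressed genes were called, 5.25% higher and 5.5% lower. At any fold, an interval that excludes no difference was seen for 11 members above 0 (19.3%) and 16 below (28.1%). The 16 include HSPB8 and HSPA12A. Of expressed genes, 26.4% lay above and 25.5% below by the same rule. These shares are near the background, and with total-count scaling they were 28.1% above and 21.1% below, against 35.2% and 18.8% of expressed genes. The median log2 ratio of the 57 was -0.05, with 34 below 0, and that of all expressed genes was 0.0078. Scaled by total counts instead, the members' median turned to 0.03 and that of all expressed genes to 0.08.

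**Figure D1:**
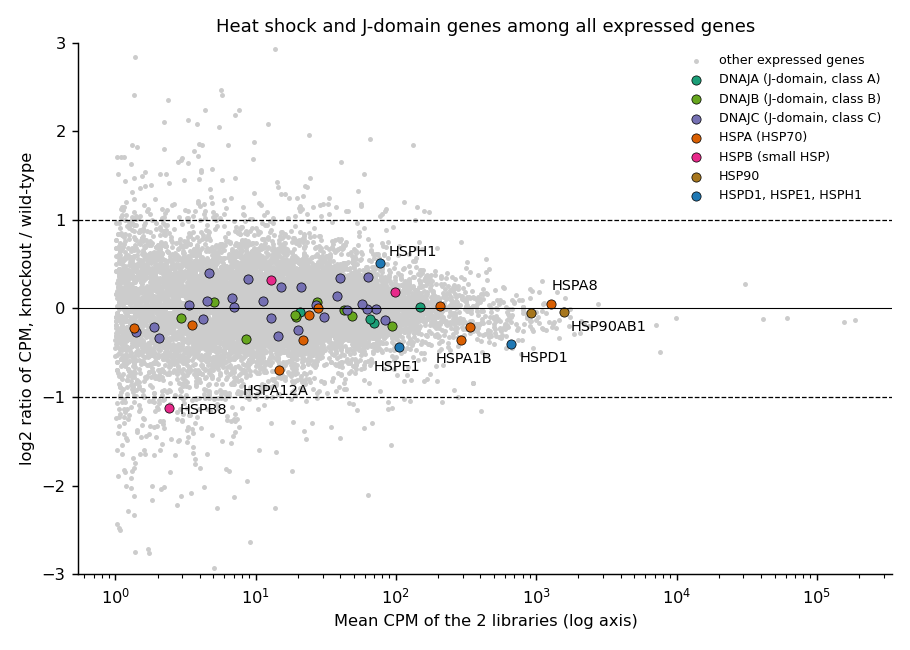
Log2 ratio of CPM (knockout over wild-type) against the mean CPM of the 2 libraries on a log axis, with 1 point per expressed gene, members coloured by family and the 2-fold lines dashed; 17 other genes lie outside the plotted range. Most members sit near 0, HSPB8 lies below the lower 2-fold line, and HSPH1 at 0.52 is the highest of the expressed members.

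The group held 0.688% of all wild-type counts (exact Clopper-Pearson interval 0.686% to 0.691%) and 0.689% of all knockout counts (0.686% to 0.692%), so the intervals overlap. Of the protein-coding counts alone it held 1.46% in the wild-type library (1.457% to 1.469%) and 1.42% in the knockout library (1.413% to 1.425%). The intervals of the coding share do not overlap, so the comparison depends on the counts taken as the whole. The 5 highest members, HSP90AB1, HSPA8, HSP90AA1, HSPD1 and HSPA9, supplied 69.4% of the group's wild-type and 69.1% of its knockout counts. J-domain genes, although more numerous, held 0.256% and 0.259% of the coding counts. Levels were also set per kilobase of merged exon. On that scale HSP90AB1 was at 534 and 521 CPM per kilobase in the wild-type and knockout libraries, HSPA8 at 259 and 268, and HSP90AA1 at 179 and 173. HSPD1, at 176 and 133, was level with HSP90AA1 in the wild-type and below it in the knockout library. HSPA1B followed at 130 and 102, and the highest J-domain gene, DNAJA1, stood at 53.9 and 54.5.

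**Figure D2:**
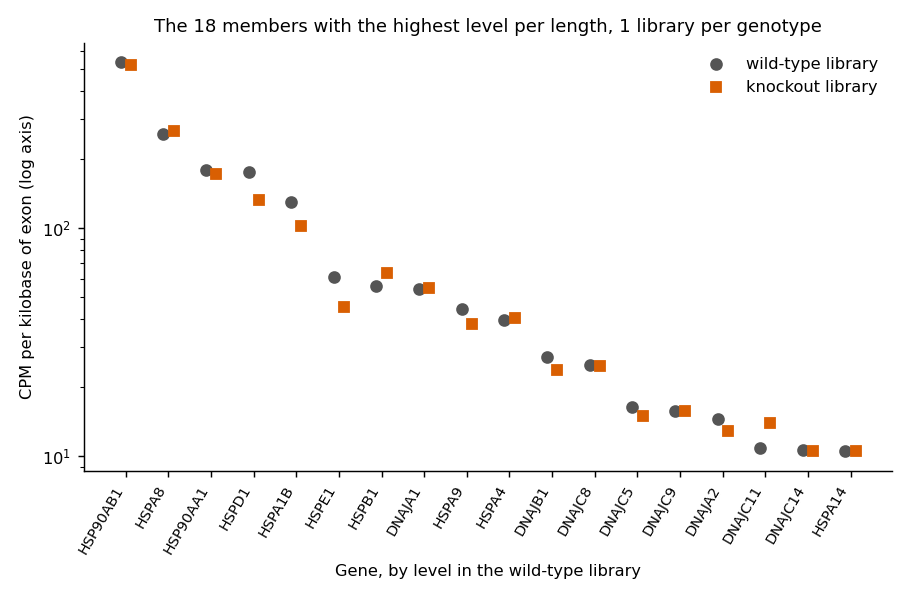
CPM per kilobase of exon, on a log axis, of the 18 members with the highest wild-type level, with a circle for the wild-type and a square for the knockout library. The order from HSP90AB1 (534 and 521) downward is nearly the same in both libraries, and HSPD1, HSPA1B and HSPE1 are the abundant members whose points are farthest apart with the knockout lower.

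Promoter windows show where heat shock and cAMP response elements fall in the group. RefSeq windows of 300 bases (GRCh38.p14, 250 before to 50 after each annotated start) were found for 63 of the 71 members, some with several starts. No window was found for DNAJC1, DNAJC22, DNAJC24, DNAJC5B, HSPA12B, HSPA14, HSPB2 and HSPB2-C11orf52. A heat shock element of 3 units, GAANNTTCNNGAA on either strand, was in a window of 7 members. Of all 27305 RefSeq genes with a window, expressed or not, 0.608% had one. They are HSP90AA1, HSP90AB1, HSPA8, HSPD1, DNAJA1, DNAJB6 and the hardly detected HSPA6. The following 30-base stretches are shown because they hold the complete matches, in capitals, and each is written 5′ to 3′ on the strand of its gene.
HSP90AA1 (chr14:102087111-102087140, minus strand): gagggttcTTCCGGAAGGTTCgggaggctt
HSPA8 (chr11:123062170-123062199, minus strand): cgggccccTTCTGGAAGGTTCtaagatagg
HSPA8 (chr11:123062345-123062374, minus strand): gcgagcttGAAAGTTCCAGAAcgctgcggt
HSPD1 (chr2:197500061-197500090, minus strand): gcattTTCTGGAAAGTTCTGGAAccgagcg
DNAJA1 (chr9:33025268-33025297, plus strand): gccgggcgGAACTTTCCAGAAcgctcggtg
DNAJB6 (chr7:157336865-157336894, plus strand): agagccgaGAACCTTCGCGAAggtggggcg
HSPA6 (chr1:161524458-161524487, plus strand): cggaaaggTTCGCGAAAGTTCgcggcggcg
In HSPD1, 2 matches overlap to 1 longer run, which begins at position -245 from the more downstream of its 2 annotated starts. In HSPA8 the matches begin at positions -55 and -230.

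The 6 expressed members with a complete 3-unit element had log2 ratios from -0.40 (HSPD1) to 0.05 (HSPA8), with a median of -0.05. The 47 expressed members with a window and no such match had a median of -0.07. HSPD1 was the 1 of the 6 beyond 1.25-fold. The shorter inner form of 2 units, GAANNTTC, is contained in the 3-unit form and was in windows of 17 members, against 8.21% of all genes. The windows of HSPA1A and HSPA1L overlap, and their shared match is counted for both. The outer form, TTCNNGAA, was in windows of 13 members, against 9.46% of all genes, and the CCAAT box in windows of 25, against 39.7%. Of the 53 expressed members with a window, 24.5% held the inner form, 18.9% the outer form and 35.8% the CCAAT box. The share with a CCAAT box was thus no higher than in all genes. The 13 expressed members with the inner form had a median log2 ratio of -0.06 (9 below 0 and 4 above), and the 40 without it -0.05. Carriers lay on both sides of 0, from HSPB8 (-1.13) and HSPA1B (-0.36) to HSPB1 (0.19) and DNAJC6 (0.33). Matches of HSPB8, DNAJB1 and HSPA1B are printed because these genes hold no 3-unit element. For DNAJB1 those before 1 of its starts are shown, and a further match at position 2 of another start is not.
HSPB8 (chr12:119178832-119178861, plus strand): tcatcacctccGAATATTCctgtgacagga
HSPB8 (chr12:119178924-119178953, plus strand): aggagccagaaGAAGTTTCtaggcgcgcgt
DNAJB1 (chr19:14518456-14518485, minus strand): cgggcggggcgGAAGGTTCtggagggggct
DNAJB1 (chr19:14518426-14518455, minus strand): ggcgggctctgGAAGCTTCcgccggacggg
HSPA1B (chr6:31827488-31827734, plus strand): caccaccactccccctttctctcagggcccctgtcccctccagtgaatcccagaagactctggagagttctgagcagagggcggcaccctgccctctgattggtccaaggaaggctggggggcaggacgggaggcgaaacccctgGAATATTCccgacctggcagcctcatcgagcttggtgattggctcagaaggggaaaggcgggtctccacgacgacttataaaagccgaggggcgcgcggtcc
The HSPA1B stretch begins 250 bases before its start and carries its match at position -105. HSPH1, the expressed member with the highest ratio, had no match to either form in its window. Its 250 bases before the start, all in lower case, are printed for comparison.
HSPH1 (chr13:31162389-31162638, minus strand): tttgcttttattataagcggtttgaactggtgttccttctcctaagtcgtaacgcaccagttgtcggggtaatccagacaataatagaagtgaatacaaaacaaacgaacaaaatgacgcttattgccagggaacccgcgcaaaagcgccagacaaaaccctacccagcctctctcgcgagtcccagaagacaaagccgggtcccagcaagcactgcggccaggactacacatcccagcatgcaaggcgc

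A complete cAMP response element, TGACGTCA, the site bound by CREB1, was in windows of 2 of the 63 members, DNAJC27 and HSP90AB1, against 2.25% of all genes. In DNAJC27 it begins at position -38. HSP90AB1 has 3 annotated starts. The middle one carries the cAMP response element at position -131, and the most downstream one carries 2 heat shock elements of 3 units at positions -165 and -112. Both stretches are shown without bases of annotated UTRs, with the matches in capitals.
DNAJC27 (chr2:24972114-24972143, minus strand): gggcctgcagaTGACGTCAgcagccccgcg
HSP90AB1 (chr6:44246851-44247086, plus strand): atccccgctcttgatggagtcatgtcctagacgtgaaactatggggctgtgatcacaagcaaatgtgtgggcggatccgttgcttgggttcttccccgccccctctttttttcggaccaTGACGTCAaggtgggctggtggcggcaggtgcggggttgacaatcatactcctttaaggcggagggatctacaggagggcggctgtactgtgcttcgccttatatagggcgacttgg
HSP90AB1 (chr6:44247693-44247865, plus strand): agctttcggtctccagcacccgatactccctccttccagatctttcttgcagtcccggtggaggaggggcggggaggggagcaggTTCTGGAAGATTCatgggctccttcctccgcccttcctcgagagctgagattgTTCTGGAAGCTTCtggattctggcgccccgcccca
Their log2 ratios were -0.33 for DNAJC27, with an interval that included 0, and -0.04 for HSP90AB1, which turned with the scaling. The half-site TGACG, which lies within the complete element, was in windows of 32 of the 63 members, against 28.4% of all genes. These sets are unlike, as 53 of the 63 members were expressed and all genes were counted whether expressed or not. DNAJC25 and DNAJC25-GNG10 have the same window, and those of HSPA1A and HSPA1L overlap, so shared half-sites are counted for each gene. The 31 expressed members with the half-site had a median log2 ratio of -0.06, and the 22 without it -0.04. A match is a match of letters and does not show that a factor binds there.

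HSP90 is the hub of the cytosolic system, and its 2 genes differed little. HSP90AB1, the constitutive form whose elements are printed above, had 53592 wild-type and 49695 knockout counts, or 1593 and 1554 CPM. Its log2 ratio was -0.04 (interval -0.05 to -0.02) and turned to 0.04 with total-count scaling. HSP90AA1, the more inducible form, had 31666 and 28954 counts, or 941 and 905 CPM. Its log2 ratio of -0.06 (-0.08 to -0.03) turned to 0.02 with total-count scaling. At this depth counting error is far smaller than the shift between scalings, so neither gene has a direction of its own here.

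Among the HSP70 genes the constitutive HSPA8 was nearly level, and the stress-inducible HSPA1B and mitochondrial HSPA9 were lower in the knockout library. HSPA8 had 42257 and 41548 counts (1256 and 1299 CPM), a log2 ratio of 0.05 (0.03 to 0.07). HSPA1B (ENSG00000204388.5) had 11046 and 8198 counts (328 and 256 CPM), which made it 1.28-fold lower (1.24 to 1.32). HSPA1A, its near-identical neighbour on chromosome 6, was given only 48.8 and 40.0 expected counts. The coding sequences of the pair are both 1923 bases long and differ at 4 positions in the GRCh38 annotation (99.8% identity), against 73.7% between HSPA1B and HSPA8. RSEM divides shared reads among such copies, and HSPA1A received 0.442% of the pair's wild-type and 0.486% of its knockout counts. The division is uncertain, so the pair is best read as a sum, which had 11095 and 8238 counts and a log2 ratio of -0.36 (-0.40 to -0.31). HSPA9, the HSP70 of the mitochondrial matrix, had 12239 and 10030 counts (364 and 314 CPM) and was 1.16-fold lower (1.13 to 1.19).

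HSPA12A (ENSG00000165868.8), a distant HSP70 relative with a divergent ATPase domain, stood apart from the classical members. It had 609 wild-type and 358 knockout counts (18.1 and 11.2 CPM), a log2 ratio of -0.69 (-0.89 to -0.50), or 1.62-fold lower. Of all expressed genes, 4.03% were at least as low. Its 20 nearest expressed coding neighbours on chromosome 10 had a median log2 ratio of -0.13, with 13 below 0 and values from -1.37 to 0.27. HSPA14, which works at the ribosome, was level with 935 and 891 counts (0.0039). HSPA13, a short HSP70 of the microsomes, and HSPA2, best known from the testis, had log2 ratios of -0.08 and -0.19 with intervals that included 0.

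The HSP110 proteins, which act as exchange factors for HSP70, went in different directions. HSPH1 (ENSG00000120694.15) had 2135 wild-type and 2900 knockout counts, or 63.4 and 90.7 CPM. It was 1.43-fold higher (1.35 to 1.51), the highest ratio among expressed members, and 7.14% of expressed genes were at least as high. HSPA4 was level at 6880 and 6660 counts (204 and 208 CPM), with a log2 ratio of 0.03 (-0.02 to 0.08). HSPA4L had 825 and 611 counts (24.5 and 19.1 CPM) and was 1.28-fold lower (1.15 to 1.43). The 3 counting intervals do not overlap one another, and that holds under any scaling, which shifts the 3 ratios alike. With total-count scaling HSPH1 reached a log2 ratio of 0.59 and so passed 1.5-fold.

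The mitochondrial chaperonin pair was lower together. HSPD1 (ENSG00000144381.12), the HSP60 subunit, had 25164 wild-type and 18094 knockout counts, or 748 and 566 CPM, and was 1.32-fold lower (1.30 to 1.35). HSPE1 (ENSG00000115541.6), the HSP10 lid, had 4057 and 2848 counts, or 121 and 89.1 CPM, and was 1.35-fold lower (1.29 to 1.42). Both values kept their direction with total-count scaling, at -0.33 and -0.36. Expected counts of both genes were fractional, as shared reads leave them, and the readthrough gene HSPE1-MOB4 that overlaps HSPE1 had 14 and 8 counts. The genes lie head to head on chromosome 2, with their nearest RefSeq starts 105 bases apart. The heat shock element printed for HSPD1 does not lie between these starts. It lies downstream of this HSPD1 start and before the other, which is 539 bases from the HSPE1 start. The window of HSPE1 held no match to a heat shock element. The 20 expressed coding neighbours of HSPE1, HSPD1 among them, had a median log2 ratio of 0.07, with 9 below 0. Those of HSPD1, HSPE1 among them, had a median of -0.00062, with 10 of 20 below 0. A ratio as low as that of HSPE1 or lower was found for 9.53% of expressed genes, so the size of the shift is not rare.

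Other matrix chaperones were set beside this pair, in a grouping made after the values were seen. DNAJA3, the J-domain partner of HSPA9, had 2307 and 2010 counts and a log2 ratio of -0.13 (-0.21 to -0.04), but its interval reached 0.03 with total-count scaling. GRPEL1 and GRPEL2, the exchange factors of HSPA9, are no members of the group and had log2 ratios of -0.44 (-0.54 to -0.34) and -0.35 (-0.50 to -0.20). TRAP1, the mitochondrial HSP90, was level at -0.03 (-0.08 to 0.02). Mitochondrial J-domain genes with other tasks had log2 ratios from -0.11 to 0.39. DNAJC11, a partner of the cristae-organising MICOS complex, had 1863 and 2272 counts and was 1.28-fold higher (1.21 to 1.37). DNAJC30, a small protein of the inner membrane, had 136 and 170 counts and a log2 ratio of 0.39 (0.06 to 0.73). DNAJC15 (0.11) and DNAJC19 (-0.11), both linked to the import motor, had intervals that included 0.

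Small heat shock proteins were few, and they hold the member with the largest ratio. HSPB8 (ENSG00000152137.2), which works with BAG3 in the removal of damaged proteins, had 111 wild-type and 48 knockout counts, or 3.30 and 1.5 CPM. It was 2.19-fold lower (1.55 to 3.15), a log2 ratio of -1.13 (-1.66 to -0.64), and 1.2% of expressed genes were at least as low. This call rests on few counts and is lost when genes under a mean CPM of 5 are left out. BAG3, its partner, was level, 586 and 577 counts giving 0.05 on the log2 scale (-0.12 to 0.22). HSPB1, the abundant HSP27, had 3074 and 3329 counts (91.4 and 104 CPM) and a log2 ratio of 0.19 (0.12 to 0.26), or 1.14-fold higher. HSPB11, a part of the intraflagellar transport machinery that is now called IFT25, had 385 and 458 counts and a log2 ratio of 0.32 (0.13 to 0.52). The other 5 genes of this class, those of muscle and heart among them, had at most 1 count in either library.

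**Figure D3:**
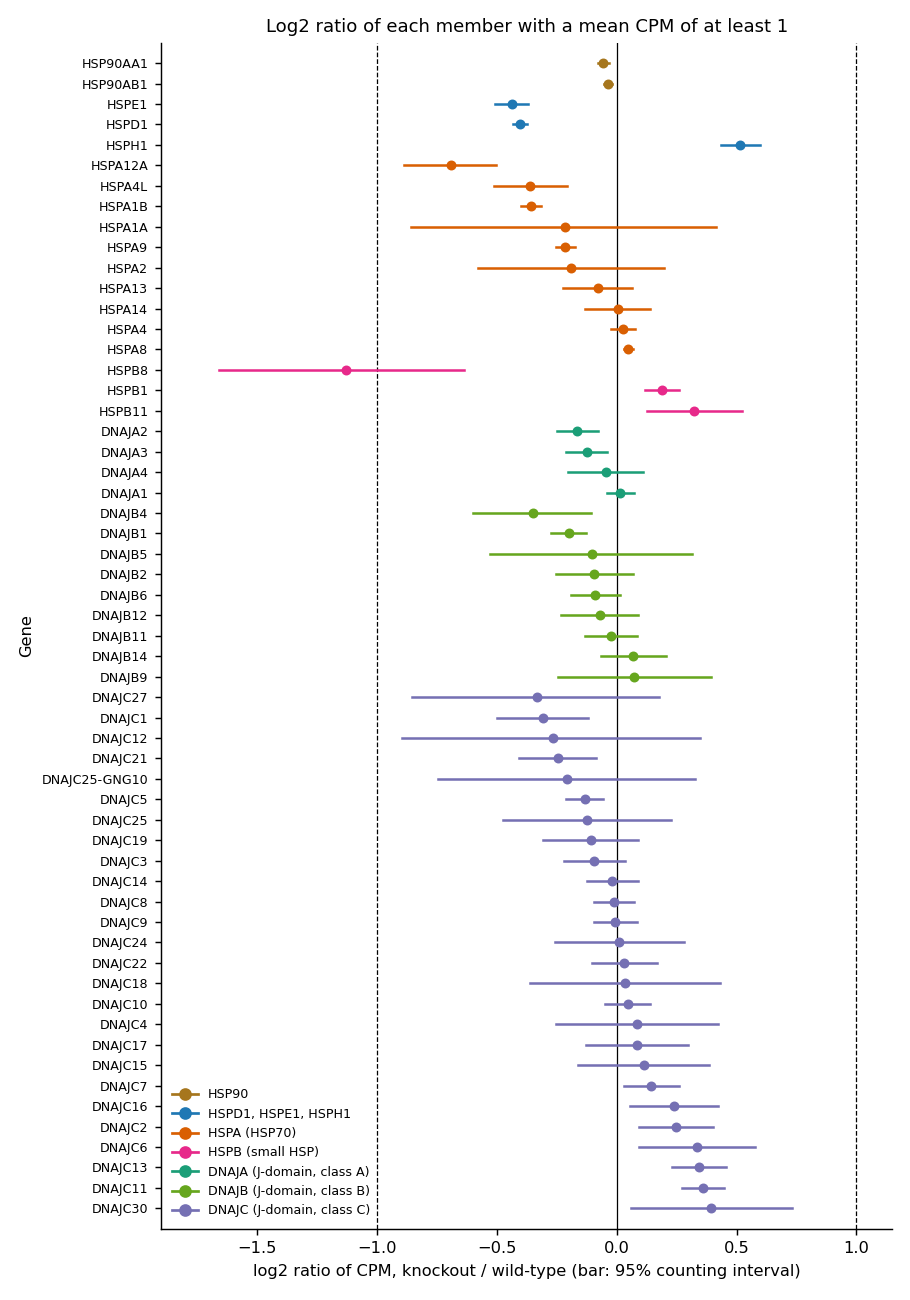
Log2 ratio of CPM (knockout over wild-type) of the 57 expressed members, by family, with bars for the 95% counting interval and dashed lines at 2-fold. HSPB8 (-1.13) and HSPA12A (-0.69) are farthest to the left, HSPH1 (0.52) farthest to the right, and most J-domain genes lie around 0.

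Class A and B J-domain proteins include the main HSP70 partners in the cytosol. Of the 13 expressed genes of both classes, 12 lay within 1.25-fold. The 13 also count the mitochondrial DNAJA3 and, from the endoplasmic reticulum, DNAJB9 and DNAJB11. The abundant DNAJA1 was level, with 4955 and 4761 counts (147 and 149 CPM) and a log2 ratio of 0.02 (-0.04 to 0.07). DNAJA2 had 2472 and 2097 counts and a log2 ratio of -0.16 (-0.25 to -0.08), and DNAJA4 was at -0.05 (-0.20 to 0.11). DNAJB1, the heat-inducible HSP40, had 3377 and 2796 counts (100 and 87.4 CPM) and a log2 ratio of -0.20 (-0.27 to -0.13). DNAJB4, a close relative, was the exception at 1.27-fold lower, from 322 to 240 counts (interval of the fold 1.08 to 1.51). DNAJB5 (-0.10), DNAJB2 (-0.09), DNAJB6 (-0.09), DNAJB12 (-0.07) and DNAJB14 (0.07) had intervals that included 0.

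The J-domain proteins of the endoplasmic reticulum assist HSPA5 in folding secreted proteins. DNAJB9 had 166 counts in each library, DNAJB11 had 1452 and 1359 expected counts, and DNAJC3 had 1068 and 952. DNAJC10, a J-domain protein that also reduces disulfides, had 1891 and 1855 counts. Intervals of all 4 included 0, with log2 ratios from -0.09 to 0.07. DNAJC1, a J-domain protein of the membrane of this compartment, had 534 and 410 counts and was 1.24-fold lower (1.09 to 1.41).

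Class C holds J-domain proteins with single, specialised tasks, and 26 of its 29 genes were expressed. Of these, 7 (26.9%) lay above 0 and 3 (11.5%) below with an interval that excludes no difference, where 26.4% of all expressed genes lay above and 25.5% below. DNAJC13, which acts in endosomal sorting, had 1184 and 1426 counts (35.2 and 44.6 CPM) and was 1.27-fold higher (1.17 to 1.37). DNAJC6, the auxilin that uncoats clathrin vesicles, had 263 and 315 counts and a log2 ratio of 0.33 (0.09 to 0.58). DNAJC2, a ribosome-bound partner of HSPA14, had 652 and 735 counts, at 0.25 (0.09 to 0.40). DNAJC16 was at 0.24 and DNAJC7, a partner of both HSP70 and HSP90, at 0.14. These 5 genes, DNAJC11 and DNAJC30 make up the 7.

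On the lower side, DNAJC21, which serves the maturation of the large ribosomal subunit, had 726 and 582 counts and a log2 ratio of -0.25 (-0.41 to -0.09). DNAJC5, the cysteine string protein of vesicle release, had 2924 and 2533 counts, at -0.13 (-0.21 to -0.06), and its interval reached 0.02 with total-count scaling. The lowest ratio of the class, -0.33 for the GTPase DNAJC27, rests on 77 and 58 counts and its interval (-0.85 to 0.18) included 0. That of DNAJC12, a partner of aromatic amino acid hydroxylases, was -0.27 from 52 and 41 counts (-0.90 to 0.35). DNAJC8 and DNAJC9, a splicing-associated protein and a histone chaperone, were level at -0.01 each, from 2438 and 2298 and from 2101 and 1989 counts. DNAJC25 and the readthrough gene DNAJC25-GNG10 share reads, and their summed counts of 217 and 186 gave -0.15 (-0.44 to 0.14). DNAJC14, DNAJC24, DNAJC22, DNAJC18, DNAJC4 and DNAJC17 had log2 ratios from -0.02 to 0.08, with intervals that included 0.

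The 14 members under a mean CPM of 1 had at most 27 counts in a library. HSPA6, a strictly heat-inducible HSP70, had 5 wild-type and 0 knockout counts, and HSPA1L had 4 and 10. Also at 0 in the knockout library alone were HSPA12B, DNAJB13, HSPB6 and HSPB7, with 1 to 3 wild-type counts. HSPB2, its readthrough gene HSPB2-C11orf52, HSPB3, DNAJB7 and DNAJB8 had no counts in either library, which allows up to 3 counts, or 0.0892 CPM (wild-type) and 0.0938 CPM (knockout). DNAJC28 (26 and 27 counts), DNAJC5G (11 and 7) and DNAJC5B (7 and 8) complete the 14. None of these has a direction at this depth.

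Partner genes outside the group were read from lists by function, which were also chosen with earlier results of these data known. The intervals counted in each list stand against 26.4% of all expressed genes above 0 and 25.5% below, or 35.2% and 18.8% with total-count scaling. HSF1, named above as a factor that binds heat shock elements, had 1605 and 1520 counts and a log2 ratio of -0.0050 (-0.11 to 0.10). Of 9 heat shock factors and regulators, 8 were expressed, 2 with an interval above 0 (25%) and 3 below (37.5%). With total-count scaling 2 lay above and 1 below, as the intervals of FKBPL and VCP then included 0. HSF4, a factor best known from the lens, was highest at 0.63 (97 and 143 counts), HDAC6 was at 0.16, and FKBPL (-0.27) and the HSF1-binding protein HSBP1 (-0.22) were lowest. Of 20 HSP90 cochaperones, all were expressed, with 11 intervals below 0 (55%), 4 above (20%) and a median log2 ratio of -0.14. With total-count scaling 8 lay below (40%) and 5 above (25%). FKBP4 (7962 and 5873 counts, -0.37) and FKBP5 (-0.35), immunophilins of the steroid receptor complex, were lowest, and TTC4 (0.14) and the kinase cochaperone CDC37 (0.13) highest. The interval of TTC4 (-0.0025 to 0.27) included 0.

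Of 12 expressed HSP70 exchange factors and BAG proteins that are not members, 4 had an interval below 0 (33.3%) and 1 above (8.33%). With total-count scaling the split was even, with 3 below and 3 above. GRPEL1 and GRPEL2, given above, were lowest, and BAG6 (2012 and 2582 counts, 0.43) and BAG2 (0.09) highest. The interval of BAG2 (-0.04 to 0.22) included 0. The 14 genes of the TRiC chaperonin, which folds actin and tubulin, and of its helper prefoldin had a median of -0.17, with 9 intervals below 0 (64.3%) and 2 above (14.3%). CCT7 (15259 and 11269 counts, -0.36) and TCP1 (10804 and 8211 counts, -0.32) were lowest, and the prefoldin subunits PFDN1 (0.26) and PFDN5 (0.08) highest. With total-count scaling 8 intervals of the chaperonin list lay below 0 and 2 above, and its median was -0.09.

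The last list held 8 expressed organelle chaperones and J-domain proteins with other names, and the lists before it 8, 20, 12 and 14 expressed genes. At 2-fold 1 gene of all these partner lists was called, where 2.92% of all expressed genes were called, 1.28% higher. It was SERPINH1. This collagen chaperone, also known as HSP47, had 2973 and 6248 counts and was 2.21-fold higher in the knockout library. The clathrin-uncoating kinase GAK was at 0.18, the mitochondrial disaggregase CLPB at -0.25 and the translocon protein SEC63 at -0.20 with an interval that included 0.

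**Figure D4:**
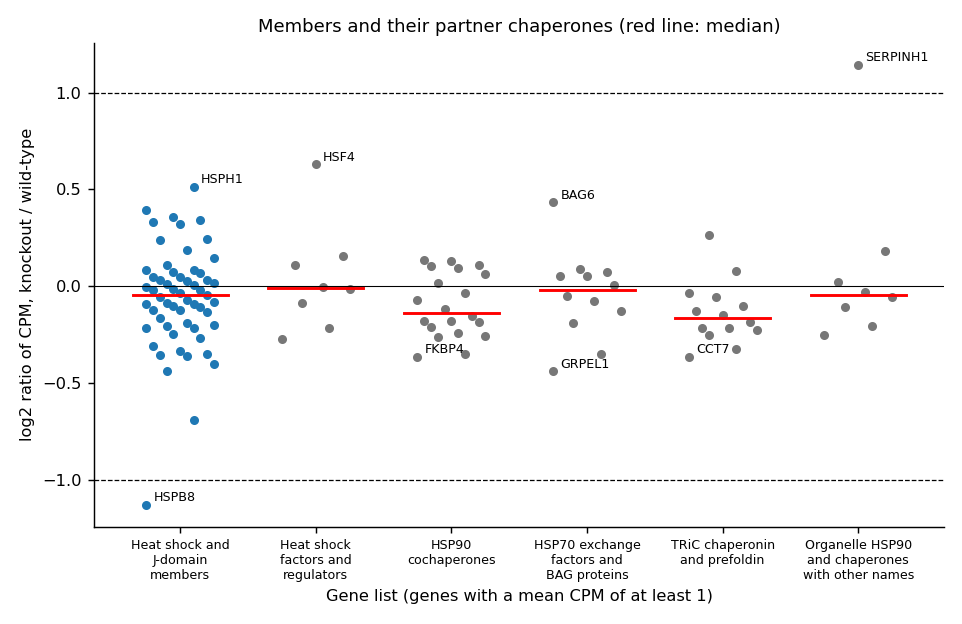
Log2 ratio of CPM (knockout over wild-type) of the 57 expressed members (blue) and of 5 lists of partner genes (grey), with 1 point per gene, the median as a red line and 2-fold dashed. The medians lie between -0.17 (TRiC and prefoldin) and -0.0097 (heat shock factors and regulators), and SERPINH1 (1.14) is the point above the upper 2-fold line.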

How the data were processed

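RNA depleted of ribosomal RNA was sequenced as stranded paired-end libraries, 1 per genotype, per the labels' protocols. The deposited values are expected counts per gene, estimates that need not be whole and that the authors had not scaled between libraries. The submitters' processing notes name cutadapt 2.0, STAR 2.4.2a and RSEM 1.2.26 with hg19. No annotation release, strand setting or filter is given in the sources used here. Of 71 members, 14 had fractional counts.

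Names, types and exon lengths came from GENCODE 29 (GRCh38) by identifiers without version, which matched 90.5%. The unmatched held 37.0% of wild-type and 35.2% of knockout counts and stayed in the totals. Gene coordinates are left out because the builds differ. Counts were rounded and scaled by TMM in edgeR 4.0.16 (R 4.3.3), with a prior count of 0.5 for log2 ratios. Intervals are exact Clopper-Pearson 95% intervals of the 2 counts. They treat read pairs as independent molecules. Calls needed a mean CPM of at least 1, the stated fold and an interval without 0. Total-count, DESeq2 1.42.0, upper-quartile and coding-gene TMM scaling, other filters, prior counts and unrounded counts were tried.

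Named in full were members past 1.5-fold, the main chaperones, the 3 highest and 3 lowest of each family, and the 2 farthest genes per direction of each list. Other members are named to account for all. Members and lists were chosen with earlier results of these data known.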

Additional observations from a re-analysis of the deposited data

How the results depend on the processing

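Neither a paired analysis nor a replicate check could be made. No paired analysis was possible because each genotype has 1 library. With total-count scaling the members' median log2 ratio turned from -0.046 to 0.027 (31 above 0 in place of 23), as that scaling raises the median log2 ratio of expressed genes by 0.07. It also changed the split of all expressed genes called at 2-fold from 165 higher and 211 lower to 201 and 167, and at 1.5-fold from 677 and 709 to 917 and 546. It brought HSPH1 past 1.5-fold, for 3 members in place of 2. DESeq2 size factors, upper-quartile scaling, TMM on coding genes, a prior count of 2 and unrounded counts left the members called at 1 (2-fold) and 2 (1.5-fold). With a mean CPM of at least 5, 0 members were called at 2-fold and 1 at 1.5-fold, as HSPB8 falls under that filter, and 137 and 717 of all genes. With no expression filter 1086 genes were called at 2-fold and 2125 at 1.5-fold. Of 252 alternative values for the 32 named members, 239 stayed within the gene's counting interval and 13 moved outside it. A filter cannot change a gene's ratio, so the values under the other filters could only stay. All 13 moves came with another scaling. With total-count scaling DNAJA1, DNAJB1, HSP90AA1, HSP90AB1, HSPA1B, HSPA4, HSPA8, HSPA9, HSPB1, HSPD1 and HSPE1 moved, and with DESeq2 size factors HSP90AB1 and HSPA8. Of the values past 1.5-fold, 0 changed sign. HSP90AA1 and HSP90AB1 were among the 8 members whose ratio changed sign with total-count scaling. Depth limits genes such as DNAJC27, DNAJC12, HSPA1A and HSPB8, whose intervals are wide.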
